A study of Mus musculus with 36 samples.

Results

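Transcripts of 8 mouse genes were followed while B cells were turned into macrophages, a conversion called B cell to macrophage transdifferentiation (BMT). The genes were Bach1, Bach2, Hmox1, Slc40a1, Slc11a1, Fth1, Ftl1 and Tfrc, which cover a pair of related transcription repressors and the uptake, storage, export and heme-derived release of iron. They were chosen by name out of the 40354 genes counted, and all 8 had a row in both count tables and in both tables of log2 values and passed the filter on low counts in every comparison. Bone marrow B cells of C57BL/6J mice had been infected with a retrovirus that carried C/EBPα fused to the hormone-binding part of the estrogen receptor, together with human CD4 (hCD4) as a marker. The 3 constructs were wild-type C/EBPα, C/EBPα R35A, with alanine in place of an arginine of the transactivation domain, and C/EBPα R35K, with lysine at the same position. Infected cells were enriched for hCD4, grown with IL-7 on inactivated embryo fibroblasts as feeders, and given 17ß-estradiol (E2), which moves the fusion protein into the nucleus, in medium with myeloid cytokines. Poly(A) RNA was sequenced at 0, 1, 3, 6, 18 and 120 hours post-induction (hpi), with 2 replicate libraries per construct and time, which gave 18 groups and 36 libraries. All 18 groups carried the retrovirus and the fusion protein, and cells given E2 without C/EBPα were not analysed here. The comparison of constructs asked how the replaced arginine changed the pace of BMT.

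BACH1 and BACH2 are leucine zipper proteins that pair with small Maf proteins on Maf recognition elements and repress the genes found there. Heme binds to them and releases them from DNA, after which NRF2 can take the same elements, and Hmox1, both ferritin subunit genes and Slc40a1 are known targets of this switch. BACH2 is the form of B lymphocytes, where it holds back both plasma cell and myeloid genes, while BACH1 is found in most tissues and in macrophages. Macrophages take up old red cells, break down their heme, and either store the iron in ferritin or return it to plasma, so high ferritin and ferroportin are known features of these cells. Dividing lymphocytes import iron mainly through the transferrin receptor.

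A second layer of control acts on the mRNA. Iron regulatory proteins bind a hairpin, the iron-responsive element, when iron is scarce. In a 5′ untranslated region (UTR) the bound protein blocks translation, and in the 3′ UTR of Tfrc it protects the mRNA from decay. The elements of these genes are shown because 4 of the 8 members carry one, and for 3 of these the control falls on translation, which RNA counts do not measure. They were found in the mm10 genome with the GENCODE vM21 annotation by a search on the transcript strand for a C, then 5 bases, then a loop of CAGTG followed by A, C or T, then 5 bases able to pair with the first 5. The loop is in capitals in each 29-base sequence, written as DNA from 5′ to 3′. Slc40a1, Fth1 and Ftl1 each held 1 match in the 5′ UTR and Tfrc held 4 in the 3′ UTR.
Slc40a1 5′ UTR, chr1:45925465-45925493, minus strand: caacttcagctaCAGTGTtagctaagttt
Fth1 5′ UTR, chr19:9982732-9982760, plus strand: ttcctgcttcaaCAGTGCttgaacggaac
Ftl1 5′ UTR, chr7:45459779-45459807, minus strand: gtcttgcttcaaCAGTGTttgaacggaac
Tfrc 3′ UTR, chr16:32631219-32631247, plus strand: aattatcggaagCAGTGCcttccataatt
Tfrc 3′ UTR, chr16:32631598-32631626, plus strand: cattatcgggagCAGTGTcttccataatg
Tfrc 3′ UTR, chr16:32631663-32631691, plus strand: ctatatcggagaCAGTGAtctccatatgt
Tfrc 3′ UTR, chr16:32631710-32631738, plus strand: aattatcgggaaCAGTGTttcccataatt
The same search matched a 5′ UTR in 23 of 21901 coding genes (0.105%) and a 3′ UTR in 100 (0.457%). Hmox1, Slc11a1, Bach1 and Bach2 held no match in either UTR.

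The libraries held 13044456 to 23131776 counts, with a median of 15471230. Levels are given as counts per 1000000 counts of the library (CPM) with 1 scaling over all 36 libraries, and a value written as a pair names replicate 1 first. R35K had count and log2 tables of its own, so for levels the construct and the table cannot be told apart, and R35K was tested against wild type only by its change from 0 hpi. Where R35K levels are set beside those of the other constructs, this is a description across tables. The summed level of 6 B cell markers lay at 2768 to 3038 CPM at 0 hpi and 62.6 to 138 CPM at 120 hpi, and that of 6 macrophage markers at 45.5 to 52.4 and 17149 to 28240.3 CPM. Erythroid markers, which matter for iron genes, summed to at most 0.823 CPM in any library. Markers of the fibroblast feeders did not stay level. Their sum was 879 to 965 CPM at 0 hpi with all 6 markers detected, then 1916 to 2374 CPM in wild-type, 1693 to 2062 CPM in R35A and 1209 to 1721 CPM in R35K cells between 1 and 18 hpi, and 106 to 131, 399.7 to 415 and 295 to 353 CPM at 120 hpi, with Lum at 0 in all 3 constructs. Granulocyte markers summed to 45.6 to 57.9 CPM at 0 hpi and to at most 10.7 CPM later. As these are bulk libraries, fewer cells of a type and less RNA per cell cannot be told apart.

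Most of the 8 members moved early, and in both directions. Within the first hour after induction wild-type cells had lost about 4-fold of their Bach2 and 2-fold of their Tfrc RNA and had gained RNA for Slc11a1, Slc40a1, Fth1, Hmox1 and Ftl1. The feeder marker sum also rose over this hour, from 879 and 895 to 1916 and 1928 CPM in wild-type libraries. Its part in these gains was not tested. By 120 hpi all members except Hmox1 stood further from 0 hpi than at 1 hpi, with Slc11a1 up by 8.64 and Bach2 down to −5.94 on the log2 scale. A change was called where it reached 1.5-fold and edgeR's quasi-likelihood test gave p of at most 0.05 after Benjamini-Hochberg adjustment over all genes tested. In wild-type cells 7 of 8 members passed at every time from 1 to 120 hpi, the exception being Bach1 up to 18 hpi and Hmox1 at 120 hpi, against a share of all tested genes that rose from 19.9% at 1 hpi through 23.5% at 3 hpi, 29.8% at 6 hpi and 47.1% at 18 hpi to 63.3% at 120 hpi. In R35A cells 6, 8, 7, 8 and 7 members passed at these times, against 37.3%, 36.8%, 37.7%, 42.6% and 63.1% of all genes. In R35K cells 7, 8, 8, 8 and 7 passed, against 32.9%, 32.7%, 34.1%, 39% and 63.8%. At 120 hpi more than 60% of all genes passed, so a count of 7 of 8 there is less far from the background than the same count at 1 hpi. The median change of the 8 members in wild-type cells was 0.73 at 1 hpi and 1.51 at 120 hpi, where the medians over all tested genes were −0.013 and −0.36.

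**Figure D1:**
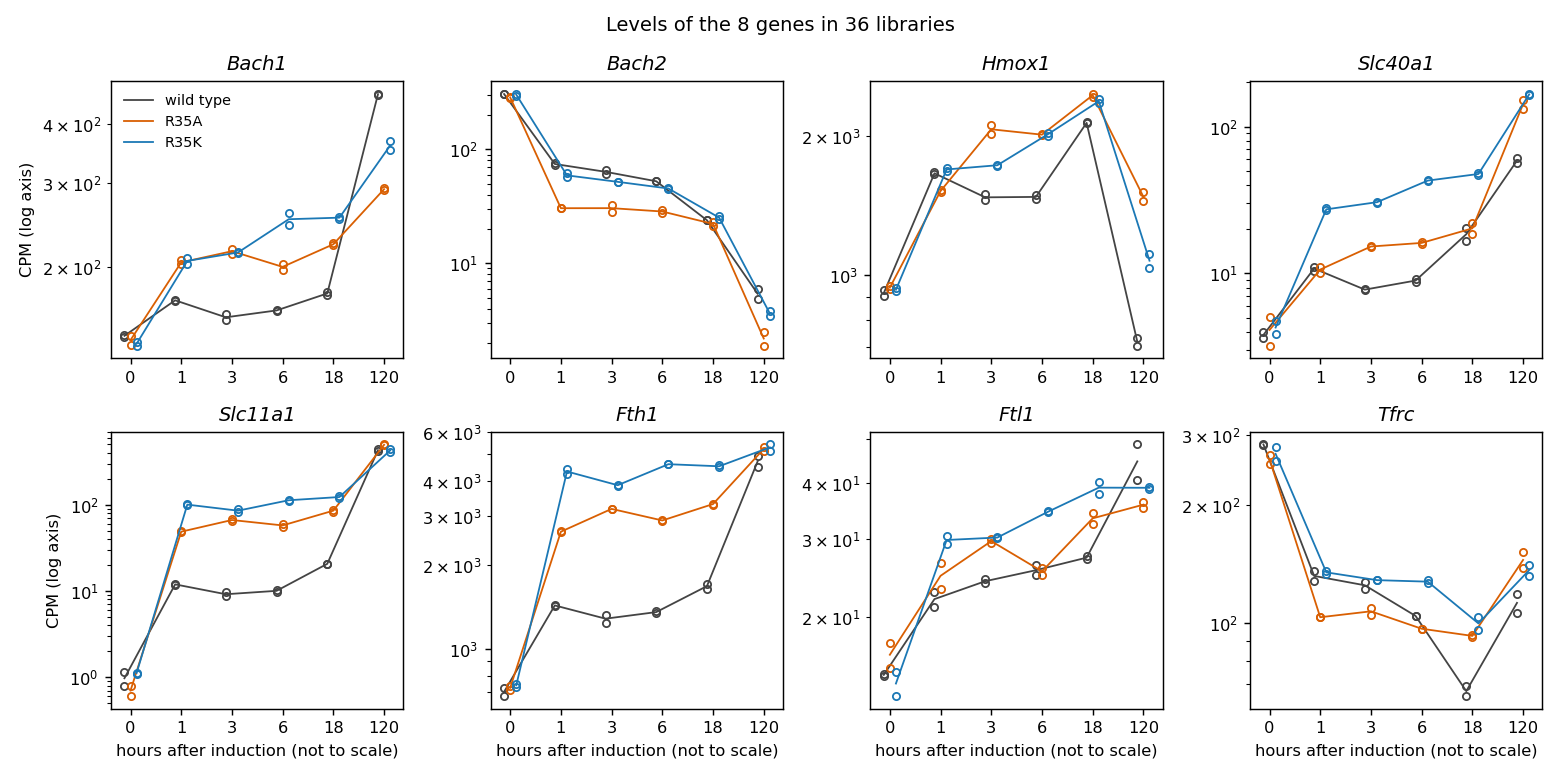
Level of each of the 8 genes in CPM (log axis) against time after induction, in evenly spaced timepoints and not to scale; open circles are single libraries, lines join the means of 2 libraries, and colours mark the 3 constructs. Bach2 falls from 283 to 308 CPM at 0 hpi to under 6 CPM at 120 hpi in every construct, Slc11a1 climbs from about 1 CPM to over 400 CPM, and Hmox1 peaks at 18 hpi.

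Bach2 (chr4:32238804-32586108, plus strand) fell at once and went on falling. Its level in wild-type cells was 305 and 305 CPM at 0 hpi, 75.9 and 72.7 at 1 hpi, 65.7 and 61.2 at 3 hpi, 52.6 and 52.3 at 6 hpi, 23.7 and 23.96 at 18 hpi and 5.93 and 4.87 at 120 hpi. R35A cells held 283 and 287 CPM at 0 hpi, 30.4 and 30.4 at 1 hpi, 28.4 and 32.5 at 3 hpi, 27.8 and 29.1 at 6 hpi, 23.04 and 21.2 at 18 hpi and 2.47 and 1.90 at 120 hpi. In R35K cells the values were 308 and 295 CPM at 0 hpi, 56.7 and 61.4 at 1 hpi, 52.0 and 51.6 at 3 hpi, 45.5 and 45.1 at 6 hpi, 26.0 and 24.3 at 18 hpi and 3.84 and 3.41 at 120 hpi. No library from 1 hpi onward reached the level of any library at 0 hpi, and R35A libraries lay below the wild-type and R35K ones at every time from 1 to 120 hpi. In time order the log2 changes from 0 hpi were −2.02, −2.27, −2.56, −3.68 and −5.94 in wild-type, −3.25, −3.26, −3.34, −3.71 and −7.16 in R35A and −2.40, −2.59, −2.80, −3.63 and −6.48 in R35K cells. All 15 passed the test, the wild-type value at 1 hpi being −2.02 ± 0.043 (SE, n = 2 libraries a group, edgeR quasi-likelihood adjusted p = 6.4e-39). An antisense gene, Bach2os, shares 537 exon bases with Bach2, and whether the authors counted by strand is not given in the sources used here. Bach2os held 2 to 73 counts per library, and at 120 hpi these came close to the counts of Bach2 itself, with 29 and 17 against 67 and 51 in wild-type cells and 19 and 41 against 29 and 25 in R35A cells.

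Bach1 (chr16:87698945-87733346, plus strand) moved the other way. Wild-type libraries held 142 and 144 CPM at 0 hpi, 170.4 and 169 at 1 hpi, 159 and 154 at 3 hpi, 161 and 162 at 6 hpi, 174 and 177 at 18 hpi and 461 and 463 at 120 hpi. Of the 5 changes from 0 hpi in these cells only the one at 120 hpi, 1.57 ± 0.036, passed, and those from 1 to 18 hpi, of under 1.5-fold, were 0.27, 0.13, 0.16 and 0.29. Bach1 in R35A libraries measured 143 and 137 CPM at 0 hpi, 206 and 202 at 1 hpi, 218 and 213 at 3 hpi, 197 and 203 at 6 hpi, 224 and 222 at 18 hpi and 293 and 289.7 at 120 hpi. The R35K libraries gave 139 and 136 CPM at 0 hpi, 203 and 208 at 1 hpi, 214 and 215 at 3 hpi, 244 and 259 at 6 hpi, 252 and 255 at 18 hpi and 353 and 367 at 120 hpi. R35A libraries thus lay above those of wild type at 1 to 18 hpi and below them at 120 hpi, and across the tables those of R35K did too. The rise passed at 3, 18 and 120 hpi in R35A (0.60, 0.65 and 0.94) and from 3 hpi on in R35K cells (0.59 at 3 hpi to 1.29 at 120 hpi). At 1 hpi the changes were 0.52 and 0.53, and with DESeq2's size factors they were 0.60 and 0.61 and passed. The calls at 3 hpi sat close to the 1.5-fold limit of 0.58. Without replicate 2 of R35A at 0 hpi or replicate 1 at 3 hpi the R35A value was 0.562 or 0.581, and without replicate 2 at 0 hpi the R35K value was 0.582, none of which passed.

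The balance between the RNA counts of Bach1 and Bach2 turned over within the first hour, while the proteins were not measured here. The log2 ratio of Bach1 to Bach2 counts within a library, in which library size cancels, was −1.104 and −1.09 in wild-type cells at 0 hpi, so Bach2 counts outnumbered those of Bach1. At 1 hpi it was 1.17 and 1.22 in wild-type, 2.76 and 2.73 in R35A and 1.84 and 1.76 in R35K cells, and at 120 hpi the means were 6.43, 7.07 and 6.64. R35A cells at 1 hpi stood near the wild-type value at 18 hpi, whose mean was 2.88. Per kilobase of exon, which allows levels to be compared between genes, wild-type cells held 23.1 CPM of Bach1 and 30.7 CPM of Bach2 at 0 hpi, and 27.5 and 7.47 CPM at 1 hpi. The ratios are a description and were given no test.

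**Figure D2:**
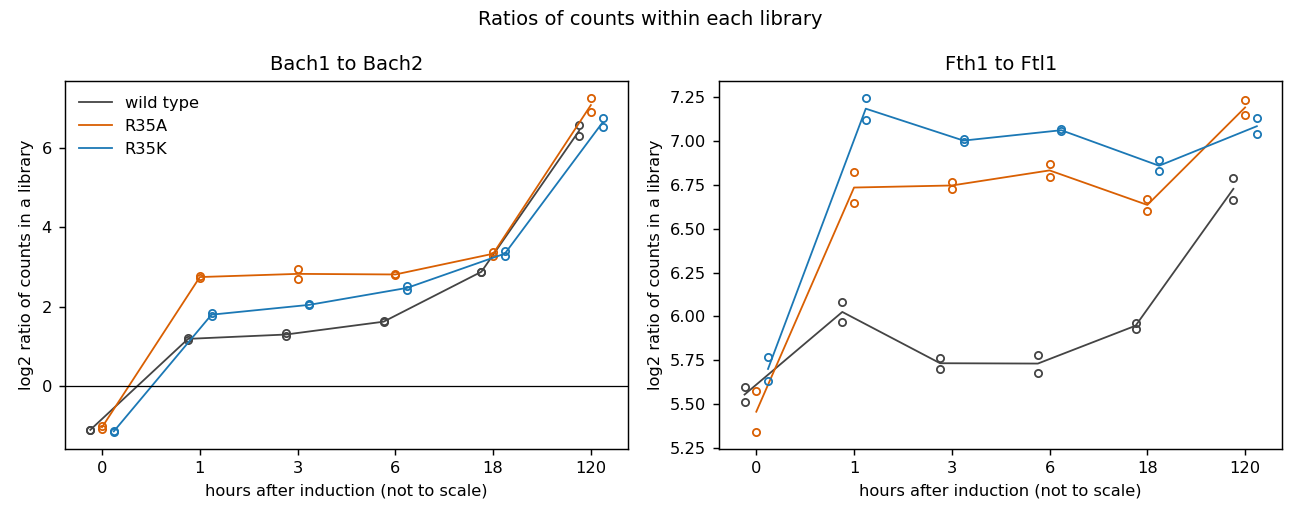
Log2 ratio of counts within each library for Bach1 to Bach2 (left) and Fth1 to Ftl1 (right) against time after induction, for the 3 constructs; open circles are libraries and lines join the means of 2. The ratio of Bach1 to Bach2 starts near −1.1 in every construct and is above 0 in every library from 1 hpi on, and that of Fth1 to Ftl1 in the mutants is above wild type from 1 to 120 hpi.

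Hmox1 (chr8:75093621-75100589, plus strand), the enzyme that opens the heme ring and frees its iron, rose and then fell back. Its level in wild-type cells was 903 and 928 CPM at 0 hpi, 1656 and 1671 at 1 hpi, 1455 and 1497 at 3 hpi, 1463 and 1495 at 6 hpi, 2145 and 2132 at 18 hpi and 732 and 705 at 120 hpi. The R35A series ran 934 and 949 CPM at 0 hpi, 1531 and 1515 at 1 hpi, 2023 and 2120.1 at 3 hpi, 2009 and 2024 at 6 hpi, 2435 and 2474 at 18 hpi and 1513 and 1446 at 120 hpi. In R35K it was 925 and 938 CPM at 0 hpi, 1707 and 1684 at 1 hpi, 1728 and 1736 at 3 hpi, 2036 and 2008 at 6 hpi, 2404 and 2360.2 at 18 hpi and 1115 and 1037 at 120 hpi. Every construct was at its highest at 18 hpi and lower again at 120 hpi, and at that last time wild-type cells lay below their own 0 hpi level while R35A cells stayed above theirs. The log2 changes at 18 hpi were 1.22 ± 0.029, 1.36 ± 0.029 and 1.31 ± 0.032 (SE) in wild-type, R35A and R35K cells, and all passed. The falls between 18 and 120 hpi of −1.70, −0.83 and −1.20 passed too. None of the changes from 0 to 120 hpi passed in the edgeR fits, at −0.48, 0.53 and 0.11. The R35A value was close to the limit, and it passed with DESeq2's size factors (0.66), by the DESeq2 Wald test (0.65), by limma (0.64), with the compared groups alone (0.73), and without replicate 1 (0.63) or replicate 2 (0.69) at 120 hpi. Each fit scales its own libraries, so its values can differ from those read off the CPM. The summed feeder markers ran a like course in wild-type cells, with 879 and 895 CPM at 0 hpi, 2346 and 2289 at 18 hpi and 131 and 106 at 120 hpi. In R35K cells the sum fell from 1721 and 1669.9 CPM at 1 hpi to 1209 and 1225 CPM at 18 hpi, over which Hmox1 rose from 1707 and 1684 to 2404 and 2360.2 CPM. The part of feeder RNA in the level of Hmox1 was not tested.

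Slc11a1 (chr1:74375195-74386062, plus strand), which encodes NRAMP1, the pump that moves iron and manganese out of the phagosome of macrophages, had the widest range of the 8 members. It was barely present at 0 hpi, with 1.17 and 0.783 CPM in wild-type, 0.604 and 0.799 in R35A and 1.102 and 1.135 in R35K libraries. At 1 hpi the values were 12.1 and 11.8, 49.6 and 47.8 and 99.4 and 101 CPM, so the constructs were already far apart. Wild-type cells then held 8.73 and 9.62 CPM at 3 hpi, 10.3 and 9.83 at 6 hpi, 20.7 and 20.7 at 18 hpi and 437 and 421 at 120 hpi. R35A cells held 64.7 and 68.4 CPM at 3 hpi, 55.2 and 60.0 at 6 hpi, 87.9 and 82.9 at 18 hpi and 502 and 489 at 120 hpi. The R35K libraries had 82.5 and 88.3 CPM at 3 hpi, 114 and 111 at 6 hpi, 126 and 119.9 at 18 hpi and 439 and 414 at 120 hpi. Wild-type cells at 18 hpi had not reached the level that either mutant showed at 1 hpi, and by 120 hpi all libraries lay between 414 and 502 CPM. The changes at 1 hpi were 3.62 ± 0.17, 6.06 ± 0.12 and 6.43 ± 0.099 (SE, log2) in wild-type, R35A and R35K cells, with edgeR adjusted p of 3.0e-24, 1.5e-40 and 2.1e-33. At 120 hpi they were 8.64, 9.30 and 8.46, each set against libraries at about 1 CPM, and the highest group mean was 707 times the lowest.

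Slc40a1 (chr1:45908068-45926523, minus strand), which encodes ferroportin, the only known exporter of cellular iron, rose more slowly. In wild-type cells its level was 3.98 and 3.63 CPM at 0 hpi, 10.4 and 11.1 at 1 hpi, 7.84 and 7.65 at 3 hpi, 8.70 and 9.15 at 6 hpi, 16.6 and 20.3 at 18 hpi and 56.2 and 61.0 at 120 hpi. The values in R35A cells were 3.22 and 5.004 CPM at 0 hpi, 10.1 and 11.1 at 1 hpi, 15.1 and 15.4 at 3 hpi, 16.3 and 15.9 at 6 hpi, 22.1 and 18.4 at 18 hpi and 133 and 152 at 120 hpi. R35K cells gave 4.70 and 3.85 CPM at 0 hpi, 26.9 and 27.7 at 1 hpi, 30.8 and 30.3 at 3 hpi, 42.3 and 43.4 at 6 hpi, 47.0 and 48.1 at 18 hpi and 168 and 164 at 120 hpi. Across the tables R35K libraries were above all others from 1 to 18 hpi, and at 120 hpi both mutants lay well above wild type. All 15 changes passed, from 1.52 ± 0.16 in wild-type and 1.31 ± 0.15 in R35A to 2.62 ± 0.1 in R35K cells at 1 hpi, and 3.81, 4.96 and 5.17 at 120 hpi. The wild-type change fell back between 1 and 3 hpi, from 1.52 to 1.02, but this step of −0.50 did not pass. The pair of R35A libraries at 0 hpi lay well apart, and each R35A change rests on their level.

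Fth1 (chr19:9980598-9985098, plus strand), the ferritin heavy chain, whose subunit oxidises iron for storage, rose in every construct and stood apart between them from 1 to 18 hpi. Wild-type cells held 675 and 724 CPM at 0 hpi, 1434 and 1427 at 1 hpi, 1241 and 1323 at 3 hpi, 1342 and 1366 at 6 hpi, 1711 and 1645 at 18 hpi and 4940.3 and 4489 at 120 hpi. The level in R35A cells was 712 and 735 CPM at 0 hpi, 2616 and 2651 at 1 hpi, 3185 and 3176 at 3 hpi, 2911 and 2869 at 6 hpi, 3297 and 3323 at 18 hpi and 5149 and 5299 at 120 hpi. For R35K it was 728 and 749 CPM at 0 hpi, 4423 and 4246 at 1 hpi, 3851 and 3887 at 3 hpi, 4595 and 4613 at 6 hpi, 4570.4 and 4480.5 at 18 hpi and 5429.7 and 5152 at 120 hpi. Across the tables, from 1 to 18 hpi every R35K library lay above every R35A library of the same time, and these above every wild-type library, while at 120 hpi the 3 group means lay within 4715 to 5291 CPM. R35K cells at 1 hpi had made 2.5 ± 0.029 (SE) of a final change of 2.74 ± 0.029, where wild-type cells had made 1.05 ± 0.033 of 2.63 ± 0.034 and R35A cells 1.84 ± 0.033 of 2.73 ± 0.034. All 15 changes passed the test.

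Ftl1 (chr7:45457944-45459884, minus strand), the ferritin light chain, which helps to form the mineral core, rose less. Between the first and the last timepoint its group mean went from 14.9 to 44.6 CPM in wild-type, from 16.5 to 35.7 CPM in R35A and from 14.2 to 39.0 CPM in R35K cells. These levels are uncertain, because 90.6% of the 919 stretches of 50 bases in the Ftl1 mRNA, the read length here, occur in other annotated genes as well, Ftl1-ps1, Gm15590 and Gm10252 first among them, and STAR's gene counts leave out reads with several matches. Fth1 shared 4.01% of its stretches. Of the 15 changes of Ftl1 14 passed, between 0.59 and 1.46, and that of R35A at 1 hpi was 0.57. The call in wild-type cells at 1 hpi was lost without replicate 1 at 0 hpi (0.583) or replicate 2 at 1 hpi (0.531), and that of R35A at 6 hpi without replicate 2 at 0 hpi (0.511). The log2 ratio of Fth1 to Ftl1 counts went from 5.51 and 5.60 at 0 hpi to 6.08 and 5.97 at 1 hpi in wild-type cells, to 6.82 and 6.65 in R35A and to 7.25 and 7.12 in R35K cells. It was 6.73, 7.19 and 7.09 on average at 120 hpi, and was not scaled for length or for shared reads.

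Tfrc (chr16:32608920-32632794, plus strand), the transferrin receptor, was the one gene of iron uptake among the 8, and it fell. Wild-type libraries held 285 and 284 CPM at 0 hpi, 136 and 128 at 1 hpi, 128 and 122 at 3 hpi, 104 and 104 at 6 hpi, 65.3 and 69.2 at 18 hpi and 106 and 119 at 120 hpi. Tfrc in R35A cells was at 267 and 254 CPM at 0 hpi, 103 and 104 at 1 hpi, 109.6 and 105 at 3 hpi, 96.9 and 96.8 at 6 hpi, 93.6 and 92.2 at 18 hpi and 138 and 151 at 120 hpi. In the R35K libraries it was at 281 and 258 CPM at 0 hpi, 134 and 136 at 1 hpi, 129 and 128 at 3 hpi, 127 and 129 at 6 hpi, 96.0 and 104 at 18 hpi and 132 and 141 at 120 hpi. The fall was largest in wild-type cells at 18 hpi, −2.08 ± 0.045 (SE), against −1.51 ± 0.043 in R35A and −1.48 ± 0.046 in R35K cells, and every construct stood higher at 120 than at 18 hpi. All 15 changes passed the test. The rise back between 18 and 120 hpi passed in wild-type cells (0.62) and measured 0.54 and 0.39 in the mutants.

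**Figure D3:**
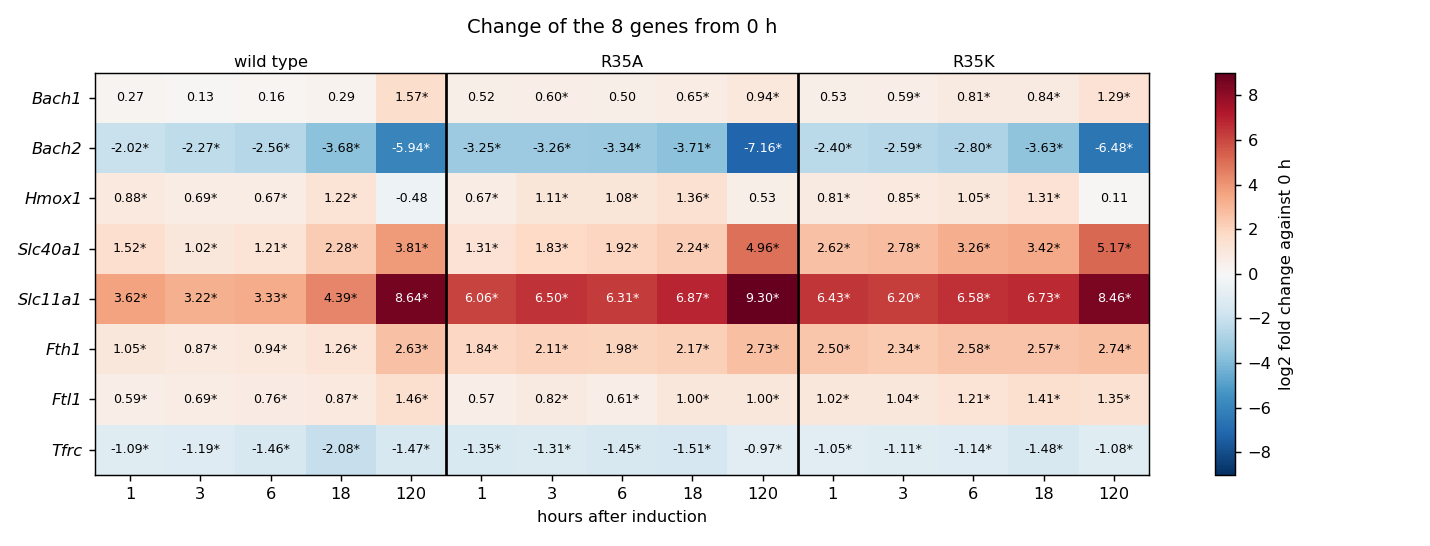
Log2 fold change from 0 hpi of the same construct for each of the 8 genes (rows) at 1 to 120 hpi in the 3 constructs (columns), with red for higher and blue for lower; a star marks a change of at least 1.5-fold with an edgeR adjusted p of at most 0.05. Bach2 and Tfrc are lower in every column, Slc11a1, Slc40a1 and Fth1 are higher in every column, and Hmox1 carries no star at 120 hpi in any construct.

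The first hour and the interval from 18 to 120 hpi held the most calls among the members, as they did among all genes. The intervals differ in length. Between 1 and 3 hpi and between 3 and 6 hpi none of the 8 members passed in any construct by edgeR, DESeq2 or limma. The background was low there too, at 1.04% and 1.04% of all genes in wild-type, 0.553% and 0.177% in R35A and 0.347% and 1.19% in R35K cells. At an unadjusted p under 0.05 and any size, 7 and 2 members moved in wild-type, 6 and 5 in R35A and 4 and 7 in R35K cells, none of them by 1.5-fold. From 6 to 18 hpi, 4 members passed in wild-type cells (13.3% of all genes), namely Slc40a1 (1.07), Slc11a1 (1.05), Bach2 (−1.12) and Tfrc (−0.62). With DESeq2's size factors, its Wald test or limma Tfrc did not pass (−0.551 to −0.560) and Hmox1 did (0.605 to 0.616). In R35A cells 0 of 8 did by edgeR, DESeq2 or limma (4.28% of all genes, 7 members at an unadjusted p under 0.05), and in R35K cells Bach2 alone did (−0.83, with 5.4% of all genes). Between 18 and 120 hpi all 8 passed in wild-type cells (60.5% of all genes), led by Slc11a1 (4.25 ± 0.051), though Ftl1 (0.59) missed at 0.578 without replicate 1 at 120 hpi. In both mutants 4 of 8 passed, against 53.9% of all genes in R35A and 53.3% in R35K. These were Slc40a1 (2.72 and 1.75), Slc11a1 (2.43 and 1.74), Bach2 (−3.44 and −2.85) and Hmox1. Fth1 changed by 1.37 in wild-type cells over this interval and by 0.55 and 0.17 in the mutants.

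R35A and wild-type cells, which share a count table, could be compared directly at each time. At 0 hpi 0 of 8 members and 0% of all genes passed by edgeR, with 2 members at an unadjusted p under 0.05 and 0 members by DESeq2 or limma. At 1 hpi R35A cells held more Slc11a1 (1.99 ± 0.069, adjusted p = 9.6e-30) and Fth1 (0.84 ± 0.032, adjusted p = 6.2e-28) and less Bach2 (−1.33 ± 0.055, adjusted p = 1.0e-26), which made 3 of 8 against 19.3% of all genes. At 3 and 6 hpi Slc40a1 joined them (0.95 and 0.85), giving 4 of 8 at each time against 17% and 13.7%. At 18 hpi only Slc11a1 (2.03) and Fth1 (0.97) still passed (10.1% of all genes). A different set of 4 passed at 120 hpi (18.8%), in which Slc40a1 (1.29 ± 0.073) and Hmox1 (1.05 ± 0.029) were higher and Bach2 (−1.31 ± 0.20) and Bach1 (−0.66 ± 0.034) were lower in R35A cells. The feeder marker sum at 120 hpi was also higher in R35A than in wild-type cells, at 399.7 to 415 against 106 to 131 CPM, and its part in the difference of Hmox1 was not tested.

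The difference in the change from 0 hpi was tested as an interaction, for R35A against wild type and for R35K against wild type, and the wild-type libraries are shared by both. For R35A 3, 4, 4, 2 and 4 of 8 members passed, in time order from 1 hpi, against 14%, 13%, 10.3%, 8.36% and 14.5% of all genes. For R35K 3, 3, 4, 6 and 1 passed, against 12%, 10.1%, 12.3%, 13.4% and 10.3%. At 1 hpi the excess over wild type was 2.44 ± 0.36 in R35A and 2.88 ± 0.32 in R35K cells for Slc11a1, and 0.79 ± 0.046 and 1.52 ± 0.048 for Fth1. Slc40a1 was faster in R35K cells at this time (1.17 ± 0.19), while its R35A value was −0.21 ± 0.24. Bach2 fell further in R35A cells (−1.24 ± 0.067) and differed by −0.31 ± 0.063 in R35K cells, which did not pass. R35A and R35K were not set against each other in a test. The R35A calls for Slc40a1 at 3 and 6 hpi, 0.81 and 0.71, hung on single libraries at 0 hpi. Without replicate 1 of R35A at 0 hpi they were 0.55 and 0.45 (edgeR adjusted p = 0.092 and 0.2), without replicate 1 of wild type at 0 hpi 0.73 and 0.63 (adjusted p = 0.065 and 0.13), and the one at 6 hpi was 0.66 (adjusted p = 0.063) without replicate 1 of wild type at 6 hpi.

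At 18 hpi R35K differed from wild type in 6 members. Fth1 (1.35 ± 0.048), Slc11a1 (2.38 ± 0.31) and Slc40a1 (1.19 ± 0.19) were well past the limit. Bach1 (0.59), Ftl1 (0.59) and Tfrc (0.65, a smaller fall) were not, and with DESeq2's size factors they were 0.48, 0.48 and 0.54 and did not pass. That scaling shifts the median of all genes in this comparison by −0.11, and takes the share of higher genes among all calls from 66.8% to 52.5%. The call of Bach1 also ended, at 0.575 to 0.580, without replicate 2 of wild type at 0 hpi, replicate 1 of wild type at 18 hpi, or replicate 2 of R35K at 0 or 18 hpi. That of Ftl1 ended, at 0.496 to 0.580, without replicate 2 of wild type at 0 or 18 hpi or replicate 1 of R35K at 0 or 18 hpi. By 120 hpi Slc40a1 alone differed for R35K (1.33 ± 0.18, adjusted p = 1.5e-07), and its R35A value was 1.145 ± 0.22 (adjusted p = 3.0e-05). The excess of Slc11a1 at 120 hpi was 0.67 ± 0.34 in R35A and −0.20 ± 0.28 in R35K cells and did not pass in either, though limma on the log2 values passed that of R35A (0.61, adjusted p = 0.0059).

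**Figure D4:**
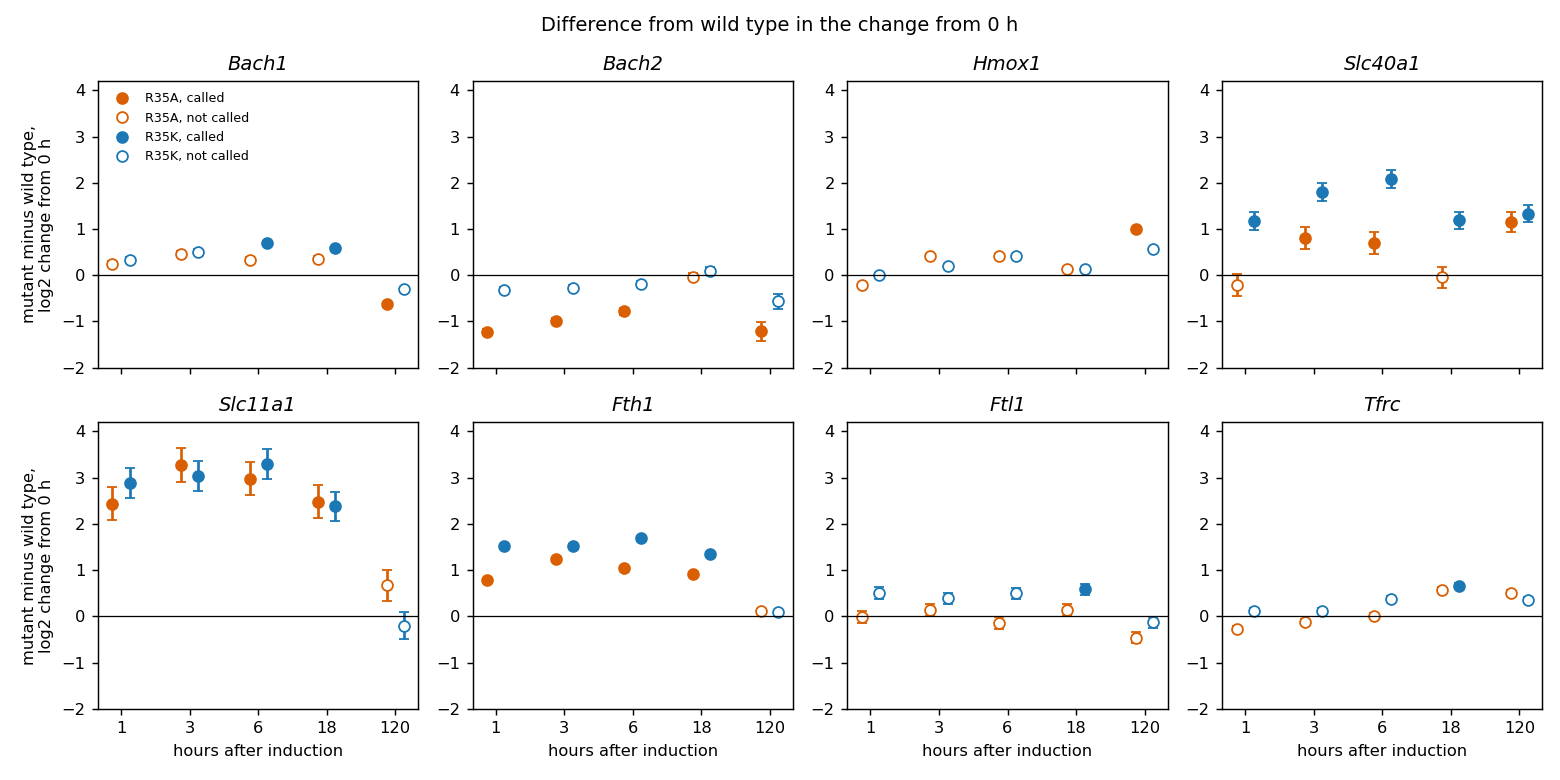
Difference from wild type in the log2 change from 0 hpi for each of the 8 genes at 1 to 120 hpi, for R35A and R35K, with bars of 1 standard error; filled points passed 1.5-fold and an edgeR adjusted p of at most 0.05. Slc11a1 and Fth1 lie above 0 from 1 to 18 hpi in both mutants and near 0 or not filled at 120 hpi, whereas Slc40a1 is filled at 120 hpi in both.

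Ordered by group mean, Slc11a1 and Bach2 spanned the most, with the highest mean 707 and 140 times the lowest, followed by Slc40a1 (43.6), Fth1 (7.56), Tfrc (4.23), Hmox1 (3.41), Bach1 (3.36) and Ftl1 (3.13). Of the 17 neighbouring pairs of groups in each order, the libraries overlapped in 3 for Bach2, 4 each for Slc11a1, Slc40a1 and Fth1, 6 each for Hmox1 and Bach1, 7 for Ftl1 and 10 for Tfrc.

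Each member was set beside the genes with the most similar course, by Pearson correlation of mean log2 CPM over the 18 groups, given as a description because the groups share libraries of a time course. Slc11a1 ran closest to Fyb (r = 0.997), Ms4a6d (r = 0.997) and Lrrc25 (r = 0.997), and Fth1 to Gpnmb (r = 0.995), Lonrf3 (r = 0.993) and Ms4a4a (r = 0.993). For Slc40a1 these were Ctsd (r = 0.977), Klc4 (r = 0.974) and Blvrb (r = 0.974). Ctsd encodes a lysosomal protease and Blvrb the biliverdin reductase that acts after heme oxygenase. Bach2 was closest to Pik3c2b (r = 0.992), Rem2 (r = 0.992) and Sh2d2a (r = 0.992), and Bach1 to Zfand5 (r = 0.989), Vps4b (r = 0.987) and Clcn4 (r = 0.985). The nearest course to Tfrc was that of Card6 (r = 0.981), Sephs1 (r = 0.972) and Polr3k (r = 0.972). Ftl1 was nearest to Cd9 (r = 0.981), Amz1 (r = 0.974) and Alas1 (r = 0.968), the last of which starts heme synthesis. For Hmox1 the nearest were Selenof (r = 0.965), Aldh1l2 (r = 0.963) and Rit1 (r = 0.958), a lower likeness than for the other members.

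A list of 49 further genes of iron, heme and the BACH and NRF2 system put the members in context, of which 46 could be tested. In wild-type cells 12 rose and 1 fell at 1 hpi, and 20 rose and 11 fell at 120 hpi. Over all genes tested 10.7% rose and 9.27% fell at 1 hpi and 23.1% rose and 40.2% fell at 120 hpi in wild-type cells. The numbers for the list were 16 and 2, then 22 and 9, in R35A and 21 and 3, then 22 and 10, in R35K cells, where 18.3% and 18.9%, then 24.2% and 39%, of all genes rose and fell in R35A and 15.5% and 17.4%, then 25.4% and 38.5%, in R35K cells. Against wild type, 4 genes changed more upward and 2 more downward in R35A and 8 and 0 in R35K cells at 1 hpi, against 5.29% and 8.74% and 6.86% and 5.14% of all genes. Of the 5 tested genes of iron import and endosome, 1 rose and 1 fell at 120 hpi in wild-type cells. In R35A cells 4 rose and 1 fell, and in R35K cells 3 rose and 1 fell. The fall of Tfrc was thus not the course of most of these 5 genes. Of the 5 listed genes of the small Maf partners and the NRF2 system, 4, 3 and 3 rose and 0 fell at 120 hpi in wild-type, R35A and R35K cells, where 23.1%, 24.2% and 25.4% of all genes rose. Maff rose by 1.89, 1.54 and 1.70, and Nfe2l2, which encodes NRF2, by 1.91, 1.83 and 1.99. From 0 to 120 hpi the mean level of Mafg went from 122 to 293, 129 to 257 and 127 to 243 CPM. That of Keap1 went from 42.9 to 42.7, 41.3 to 52.1 and 39.1 to 47.3 CPM. Maff, Nfe2l2, Mafg and Keap1, and the antioxidant genes below other than Nqo1, Gclc and Slc7a11, are named after their values were seen.

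The antioxidant genes controlled by NRF2 and BACH1 form a group to which Hmox1 also belongs. Of the 6 listed (Nqo1, Gclm, Gclc, Txnrd1, Slc7a11, Srxn1) 6 rose by 18 hpi in wild-type, 4 in R35A and 5 in R35K cells, against 23.9%, 21% and 18.4% of all genes. Between 18 and 120 hpi 5 fell in wild-type and all 6 in each mutant, against 33%, 29.4% and 28.5% of all genes, with a median of the list of −2.79, −2.77 and −3.19 in wild-type, R35A and R35K cells, where the medians over all genes were −0.089, −0.058 and −0.061. Nqo1, a quinone reductase, went from 51.6 and 52.1 CPM at 0 hpi to 112 and 114 at 18 hpi and 2.21 and 2.10 at 120 hpi in wild-type cells, a change from 0 to 120 hpi of −4.71 ± 0.11, with −4.04 ± 0.087 in R35A and −4.65 ± 0.11 in R35K cells. Gclc, the catalytic subunit of glutathione synthesis, was at −2.55, −2.84 and −2.96 at 120 hpi. Slc7a11, the cystine importer, took another course in wild-type cells, where it was at 16.8 and 16.4 CPM at 0 hpi and still 47.2 and 51.6 CPM at 120 hpi (1.44). In R35A it fell from 126 and 129 CPM at 18 hpi to 18.6 and 19.4 CPM at 120 hpi, and the R35A change from 0 to 120 hpi minus that of wild type was −1.39 ± 0.12. Unlike Nqo1, Hmox1 at 120 hpi was still at 1513 and 1446 CPM in R35A cells. The feeder marker sum ran along with this group in wild-type cells and its part was not tested.

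**Figure D5:**
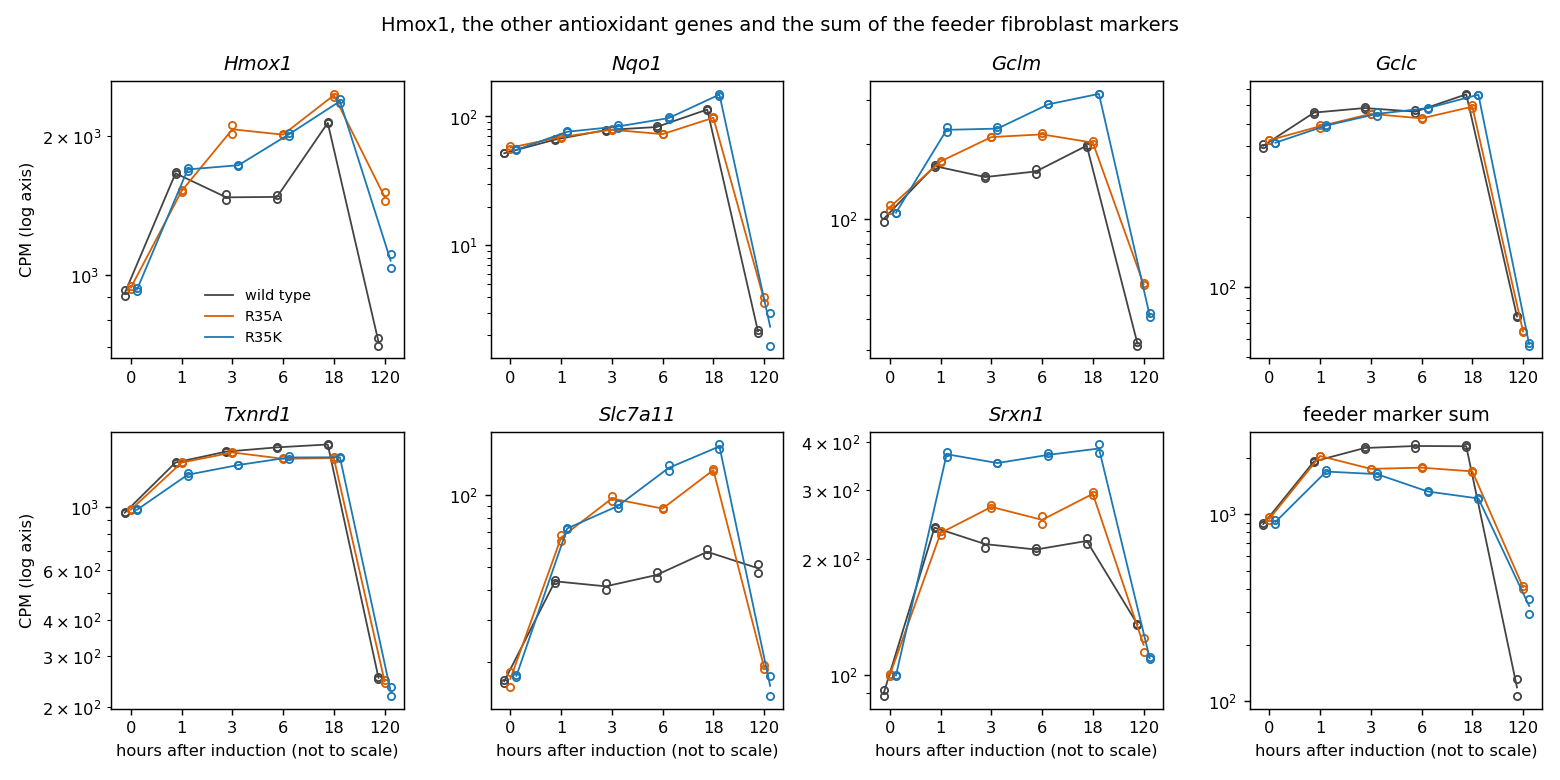
Level in CPM (log axis) of Hmox1, 6 antioxidant genes and the sum of 6 feeder fibroblast markers against time after induction, with open circles for libraries, lines through the means of 2 and colours for the 3 constructs. Hmox1, Nqo1, Gclm and Gclc are highest at 18 hpi in most series and drop by 120 hpi, Nqo1 from 96.6 to 150.4 CPM at 18 hpi to group means of 2.2 to 3.8 CPM, and the feeder sum rises at 1 hpi and drops at 120 hpi as well.

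Promoter sequences, from 250 bases before to 50 bases after the start, were at hand for 6 of the 8 members in 8 windows from RefSeq, with none for Hmox1 and Slc40a1. The AP-1 core TGAGTCA, the element TGAGTCAGC that holds it and is bound by BACH with small Maf proteins, and GAGGAAGT, a PU.1 element, were sought on both strands and matched none of the 8 windows, as against 5.20%, 0.414% and 3.202% of all 32851 windows. The C/EBP core TTGCNNAA matched 1 window, of Fth1, and 10.8% of all windows.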

How the data were processed

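RNA of 36 libraries (18 groups of 2 biological replicates) had been sequenced by the authors as single-end 50-base reads from a stranded poly(A) kit. Per the labels they aligned reads to mm10 with STAR 2.5.0a, after FastQC, and used DESeq2 1.14.1; the deposited counts per gene came from STAR, and the strand column and annotation used are not given in the sources used here. The deposited log2 values equalled log2 of the count divided by a size factor, plus 1, for 100% of entries. WT and R35A share a count table, R35K has its own. From the counts, edgeR 4.0.16 (R 4.3.3, TMM scaling, filterByExpr) fitted 24 WT and R35A libraries (16988 genes), 12 R35K libraries (16434 genes) and, for the interaction with R35K, 24 WT and R35K libraries (16979 genes). A call needed a log2 fold change of 0.5849625 (1.5-fold) and an adjusted p of 0.05. With 2 libraries a group, the p-values and standard errors rest on the spread between replicates pooled over all groups of a fit and moderated across genes. They do not rest on the compared libraries alone. The 3 fits, in the order given, had 12, 6 and 12 residual degrees of freedom. Their common biological coefficient of variation, edgeR's measure of that spread, was 3.17%, 3.49% and 3.65%. An exact permutation test of 2 against 2 libraries could not go below 0.333. Alternatives were DESeq2 1.42.0 (size factors, Wald test), limma 3.58.1 on the log2 values, no low-count filter, unadjusted p, a 2-fold limit, fits of the compared groups alone, a replicate block and leaving out each library; the ratios were also taken with 1 count added, and the motif of 9 bases with 1 mismatch. Replicates differed by more than sampling noise in every group. The chi-square per degree of freedom was 13.2 in wild type at 6 hpi, 7.18 in R35K at 3 hpi and 1.11 to 3.20 in the other groups. Gene coordinates are GENCODE vM21 on mm10, in which 39171 of 40354 symbols were found. Named beside the members are the 3 genes of most similar course, and from the pathway list the 3 called genes of largest change in each direction at 1 and 120 hpi with no overlap between libraries; 1 gene that this rule picks is not reported here. The script was tested on simulated data. The members, lists and tests were chosen with earlier results of these data known.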

Additional observations from a re-analysis of the deposited data

Results flagged for a closer look

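The change from 0 hpi differed between a mutant and wild type, by edgeR's interaction test, for 34 of 80 pairs of member and time, 17 for each mutant, against 12% and 11.6% of all gene and time pairs tested for R35A and R35K. Values are differences of log2 changes, mutant minus wild type. All rest on the same wild-type libraries, and for R35K the construct and the count table cannot be told apart. No group was large enough for a check on single outlying libraries.

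Slc11a1 differed at 1 to 18 hpi in both mutants, by 2.44, 3.28, 2.98 and 2.48 for R35A and 2.88, 3.03, 3.30 and 2.38 for R35K. Fth1 did so over the same times, by 0.79, 1.24, 1.04 and 0.92 for R35A and 1.52, 1.52, 1.69 and 1.35. Both genes were thus ahead of wild type at every time but the last. Slc40a1 differed for R35A at 3, 6 and 120 hpi (0.81, 0.71 and 1.145) and for R35K at all 5 times (1.17, 1.81, 2.09, 1.19 and 1.33). Its R35A values at 3 and 6 hpi did not pass without replicate 1 of R35A at 0 hpi (0.55 and 0.45).

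Bach2 was further down in R35A cells at 1, 3, 6 and 120 hpi (−1.24, −0.99, −0.78 and −1.22). Bach1 was lower in R35A cells at 120 hpi (−0.63) and higher in R35K cells at 6 and 18 hpi (0.69 and 0.59). Hmox1 was higher in R35A cells at 120 hpi (1.01), where the feeder marker sum was higher as well. Ftl1 and Tfrc differed for R35K at 18 hpi (0.59 and 0.65). With DESeq2's size factors the values of Bach1, Ftl1 and Tfrc at 18 hpi did not pass.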

How the results depend on the processing

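Of the 7 counts of member calls, a 2-fold limit moved 2 by more than 1.5 times, to 11 from 17 for R35A against wild type at the same time and to 10 from 17 for the difference between R35A and wild type in the change from 0 hpi. The others stayed within 1.5 times under every alternative run. Leaving out 1 library gave 34 to 35 calls of 40 in wild-type, 34 to 37 in R35A and 37 to 38 in R35K cells, 17 for R35A against wild type, 15 to 18 and 15 to 19 for the differences of R35A and R35K, and 40 to 44 of 120 for the steps. Replicate numbers showed no pairing common to the groups. The median correlation of deviations was −0.0063 over 153 pairs of groups, with a range of −0.489 to 0.278 and 12 pairs over 0.1. A fit with the replicate block gave the same 35, 36, 38, 17, 17, 17 and 41 calls. Such a block cannot take up deviations that groups share under opposite replicate numbers.

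Single values that were called, or were called under an alternative, kept their sign under every alternative run, and 37 further values that were neither called nor past p were not followed, of which 17 changed sign. Outside the 2-fold limit, 8 values lost a call and 11 gained one under at least 1 alternative, and 9 lost and 11 gained one when at least 1 of the libraries was left out in turn, with sizes under the alternative of 0.449 to 0.735. In wild-type cells Tfrc between 6 and 18 hpi lost its call with DESeq2's size factors (−0.56), and without the filter Ftl1 and Tfrc between 18 and 120 hpi did (0.54 and 0.56), as did Bach1 of R35A against wild type in the change to 120 hpi (−0.58). Calls were gained, under DESeq2's size factors among others, by Bach1 (0.60) and Ftl1 (0.64) in R35A and Bach1 (0.61) in R35K cells at 1 hpi, by Fth1 (0.62) and Tfrc (0.61) in R35A cells between 18 and 120 hpi, and by Hmox1 (0.61) in wild-type cells between 6 and 18 hpi. Without single libraries of either group compared, calls were gained for R35A against wild type in the change to 18 hpi by Tfrc (0.586 to 0.634), for R35K in the change to 120 hpi by Hmox1 (0.598 and 0.622) and Bach2 (−0.591 and −0.680), and by Slc11a1 in R35A cells between 6 and 18 hpi (0.606 and 0.625). DESeq2's size factors moved the median of all genes by 0.116 in wild-type cells at 18 hpi, by 0.129 to 0.158 at 120 hpi, and by −0.108 for R35K against wild type at 18 hpi. Over all genes the short steps were the least stable. R35A gave 94 calls from 1 to 3 hpi and 30 from 3 to 6 hpi against 32 and 6 by the Wald test and 50 and 8 by limma. R35K gave 57 and 195 against 19 and 98 and against 18 and 97. Wild type gave 176 and 176 against 98 and 60 by the Wald test, and 94 from 3 to 6 hpi by limma. R35A against wild type at 0 hpi gave 0 calls, 16 without the filter, 1 with the block, 19 by limma and 5 with the compared groups alone. Depth limits Slc11a1 and Slc40a1 at 0 hpi, with 9 to 19 and 48 to 94 counts per library, and Bach2 at 120 hpi, with 25 to 67. The causes of these changes were not tested.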

Other observations

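Several genes of the wider iron and heme list also changed within the first hour. Cp, which encodes ceruloplasmin, the oxidase that loads exported iron onto transferrin, held 7.27 and 7.19 CPM in wild-type cells at 0 hpi, 25.3 and 26.5 CPM at 1 hpi and 10.9 and 11.2 CPM at 120 hpi. R35A cells at the same times held 7.51 and 7.93, 69.8 and 62.7 and 33.0 and 35.6 CPM, and R35K cells 7.31 and 5.93, 64.2 and 67.4 and 26.4 and 28.9 CPM. It rose early in every construct, by 1.86 ± 0.10, 3.07 ± 0.081 and 3.25 ± 0.085 (log2, SE), and the change at 120 hpi was larger in R35A than in wild-type cells by 1.55 ± 0.16. Hfe, the hemochromatosis protein that binds the transferrin receptor, rose by 1.02, 2.06 and 3.41 at 1 hpi and by 4.201, 4.14 and 4.68 at 120 hpi in wild-type, R35A and R35K cells. The part of feeder RNA in the rises at 1 hpi was not tested.

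Genes of heme handling moved in both directions. Blvrb, which reduces biliverdin, rose by 3.60, 3.86 and 3.85 at 120 hpi, when the change of Hmox1 itself was −0.48, 0.53 and 0.11, in the order wild-type, R35A and R35K. Cd163, the hemoglobin scavenger receptor, was at 26.3 and 25.2 CPM in wild-type, 24.5 and 28.9 in R35A and 37.2 and 37.3 CPM in R35K cells at 120 hpi and under 0.2 CPM in every library at 0 hpi. Flvcr2, a heme and choline transporter, fell from 3.50 and 3.21 CPM at 0 hpi in wild-type, 3.09 and 3.41 in R35A and 2.90 and 3.78 in R35K cells to at most 0.228 CPM in any library at 120 hpi. Of the 10 genes in this list 6 rose and 2 fell in wild-type cells at 120 hpi and 7 and 2 in each mutant, where 23.1% and 40.2% of all genes rose and fell in wild-type, 24.2% and 39% in R35A and 25.4% and 38.5% in R35K cells. Alas1, the first enzyme of heme synthesis, rose by 2.14, 1.98 and 1.83. Of the 8 genes of heme synthesis tested, 2 rose and 2 fell at 120 hpi in wild-type cells, 2 rose and 1 fell in R35K cells, and Alas1 alone passed in R35A cells.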
